A study of Rattus norvegicus with 24 samples.

Results

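Of 396151 autosomal CpGs read at least 10 times in each of 12 kidney libraries, 466 (0.118%) were less methylated in Brown Norway (BN) than in CD rats both before and during pregnancy. They were chosen by 3 conditions. The methylation level of the pooled reads was at least 15 percentage points lower in BN than in CD in non-pregnant (NP) rats, it was at least 15 points lower at pregnancy day 18 (P18), and each BN library lay below each CD library. The strain difference chose these CpGs, so it is described here and not tested, and 0.118% is the share that the rule itself left. Without the condition that the strains do not overlap, 1088 CpGs had both gaps. The mirrored rule, higher in BN, was met by 1363 CpGs (0.344%).

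The libraries came from kidney sections of female rats aged 2 months. CD is the outbred Sprague Dawley stock and BN an inbred strain, and each strain gave 3 NP and 3 P18 rats, with 1 library from reduced representation bisulfite sequencing (RRBS) and 1 from RNA-seq per rat. RRBS sequences DNA cut at CCGG sites after bisulfite treatment, so that a methylated cytosine is read as C and an unmethylated one as T. The values are the percent of reads with C at each strand of a CpG, and each strand is counted as a CpG of its own. Positions are on the Rnor6.0 assembly, which was itself made from the BN strain. Each member is therefore a CpG of a BN reference. Whether the rats carried another base at any of these positions was not tested. RRBS coverage summed to 21669162 to 44738436 per library, and the RNA-seq libraries held 8274159 to 11879451 reads on genes.

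In mammals, cytosine methylation at CpGs is laid down by DNA methyltransferases, copied at cell division and removed with the help of TET enzymes. Dense methylation of a promoter goes with a silent gene. Ribosomal RNA genes lie in long arrays of near-identical repeats, and in a given cell some of these copies are active and others are methylated and silent.

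The 466 CpGs fell into 276 loci when CpGs within 200 bases of each other were joined. At 208 loci there was 1 member, and 68 loci were clusters of 2 or more, holding 258 members (55.4%). Small clusters prevailed, with 38 of 2 members, 10 of 3 and 9 of 4. One stretch of chromosome 1 held 89 members (19.1%) in 7 clusters, and the other 377 members lay on all 20 autosomes. Outside that stretch 44.8% of members lay in clusters, beside 25.9% of the CpGs chosen by the mirrored rule.

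Promoter sequence could be given for 2 loci. No sequence of Rnor6.0 was used here, so the spacing of the CpGs listed in the libraries was compared with the spacing of CpGs in RefSeq promoters of the newer assembly GRCr8 (250 bases before to 50 after a gene's start). At 2 of the 276 loci 20 or more listed CpGs fell on promoter CpGs without a mismatch. Matches elsewhere covered at most 8 CpGs, and matches to promoters of another chromosome at most 6, and these were not used. Both promoters are printed 5′ to 3′ in the direction of the gene, with the CG of each member in capitals, to show where the members sit among their neighbours. The first is that of Mt1, which codes for metallothionein 1, a small cysteine-rich protein that binds zinc, copper and cadmium and is induced by metals through the factor MTF1. It lies on the minus strand at chr19:10832926-10833225 of GRCr8, and 25 of its 27 CpGs were listed in the libraries.
Mt1: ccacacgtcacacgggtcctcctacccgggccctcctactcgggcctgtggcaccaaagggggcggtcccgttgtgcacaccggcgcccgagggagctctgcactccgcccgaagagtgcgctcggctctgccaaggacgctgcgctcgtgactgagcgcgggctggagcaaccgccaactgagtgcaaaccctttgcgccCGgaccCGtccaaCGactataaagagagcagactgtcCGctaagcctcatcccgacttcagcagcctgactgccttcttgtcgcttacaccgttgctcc
The second is that of LOC130014439, a long non-coding RNA gene of unknown role on the plus strand at chr13:84948894-84949193 of GRCr8, with 26 of 27 CpGs listed.
LOC130014439: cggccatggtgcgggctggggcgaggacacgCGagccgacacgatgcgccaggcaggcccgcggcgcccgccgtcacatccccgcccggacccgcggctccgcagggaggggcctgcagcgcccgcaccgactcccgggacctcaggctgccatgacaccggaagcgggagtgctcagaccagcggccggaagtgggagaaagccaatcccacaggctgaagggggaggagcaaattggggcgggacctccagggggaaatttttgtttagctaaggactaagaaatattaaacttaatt

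The largest group of members lay beside a 5.8S ribosomal RNA gene. An annotation table supplied with the study places the start of Rn5-8s, on the minus strand, at position 11906594 of chromosome 1 (Rnor6.0). Its 5.8S product is part of the large ribosomal subunit. The 89 members lay 123 to 5680 bases before that start, between positions 11906717 and 11912274, and 7 of them were in the first 1 kb. The same table marks a CpG island of 11135 bases from 11905704 to 11916838 over the whole stretch. In the ribosomal repeat the 18S segment precedes the 5.8S segment, but the other segments were not placed here. In this stretch 92 CpGs were tested between the first and the last member, so 89 of 92 met the rule. Of the other 3, 2 had both gaps over 15 points but overlapping libraries. The remaining one, at position 11910165 among 36 members, was higher in BN, with 2.93% of pooled reads in CD-NP and 16.8% in BN-NP.

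**Figure D1:**
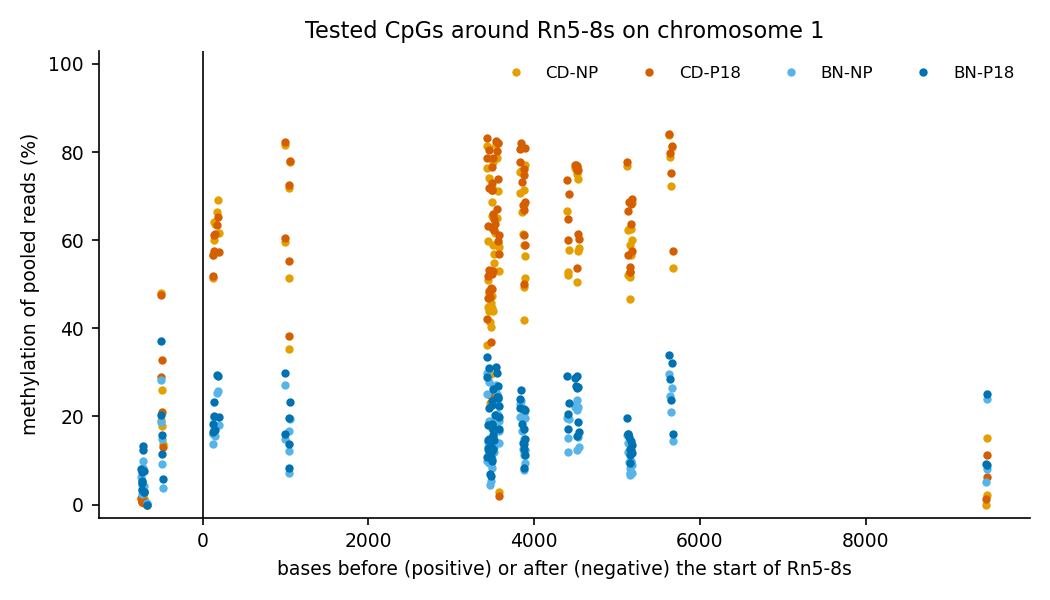
Methylation of pooled reads (%) of each tested CpG against its distance from the start of Rn5-8s on chromosome 1, with positive distances before the start and 1 colour per group of 3 rats. From 123 to 5680 bases before the start, CD groups lie above BN groups at all but 1 CpG, and at the 11 CpGs 672 to 742 bases after the start the CD groups lie at 0 to 3.29% and the BN groups at 0 to 13.4%.

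In the CD rats pooled levels of the 89 members ranged from 23.1 to 83.9% at NP and from 24.8 to 84.1% at P18. In BN they ranged from 4.43 to 29.8% at NP and from 6.6 to 34.1% at P18. The median of BN minus CD was -46.8 points at NP and -47.4 points at P18. The cluster of 36 members from 11910023 to 11910176 had mean levels of 58.7% (NP) and 62.2% (P18) in CD, and 16% (NP) and 18.8% (P18) in BN. A cluster of 13 members from 11910425 to 11910488 had 63.4% in CD-NP and 15.7% in BN-NP. A cluster of 12 from 11910989 to 11911131 had 64.5% and 18.3%, and one of 11 from 11911710 to 11911779 had 59.9% and 9.91%. The smaller clusters were of the same kind, with 6 members from 11906717 to 11906787 at 59.6% in CD-NP and 16.7% in BN-NP, 6 from 11907592 to 11907652 at 63.0% and 16.2%, and 5 from 11912226 to 11912274 at 74.0% and 23.2%. All 20 members of the stretch whose other strand was tested had a member there too. These 20 are both strands of the same CpGs, so each such CpG was counted from either strand.

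The stretch differed widely among rats of the same strain. Over its 89 members the percent of methylated reads was 71.8%, 62.7% and 54.3% in the 3 CD-NP libraries and 52.8%, 79.9% and 58.6% in the 3 CD-P18 libraries. It was 16.7%, 12.6% and 20.6% in BN-NP and 15.7%, 4.10% and 32.1% in BN-P18. The group means were 62.9 ± 8.75% (SD, n = 3) in CD-NP and 63.8 ± 14.3% in CD-P18, against 16.6 ± 3.99% in BN-NP and 17.3 ± 14.1% in BN-P18. Replicates 2 and 3 of BN-P18 were thus the lowest and the highest of the 6 BN libraries, and replicate 2 of CD-P18 was the highest of all 12. This order held at nearly every CpG of the stretch. BN-P18 replicate 2 was the lowest of the 12 libraries at 88 of the 89 members, BN-P18 replicate 3 the highest BN library at 89, and CD-P18 replicate 2 the highest of all at 88. The 89 CpGs share reads and repeat copies and are not 89 independent measurements.

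A block of 4 members on chromosome 14 (positions 46565360 to 46565429, minus strand), chosen for mention after its values were seen, followed the same order of rats. Its percent of methylated reads was 79.4%, 73.0% and 63.4% in the CD-NP rats and 62.1%, 86.3% and 68.9% in the CD-P18 rats. In BN it was 18.2%, 12.7% and 21% at NP and 18.2%, 4.05% and 31.9% at P18. Ranked by methylation, all 12 libraries stood at the same rank in this block as in the stretch before Rn5-8s. The 2 places share the rats and very high coverage, with 456 to 3906 reads per CpG and library in the block. No gene was placed at the block here.

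Outside the stretch the members are spread over many loci, and their mean averages over these. It was 67.8 ± 0.499% (SD, n = 3) in CD-NP and 66.6 ± 0.563% in CD-P18, and in BN 38.8 ± 0.15% at NP and 38.2 ± 0.63% at P18. The SD of such a mean cannot be set against that of 1 stretch, and single members varied widely between rats. At position 38823414 of chromosome 11, named after its values were seen, the BN libraries had 43.6%, 0% and 50% at NP and 0%, 0% and 73.9% at P18. Pooled over all 396151 tested CpGs, the libraries stood at 44.2 to 47.2% in CD and 45.1 to 47.4% in BN, so the strains overlapped. The rule itself required the members to separate the strains. Over all autosomal CpGs listed for each library, CD had 36.1 to 45.4% and BN-NP 39.9 to 45.9%. BN-P18 had 47.3 to 49.1%, above each CD library.

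**Figure D2:**
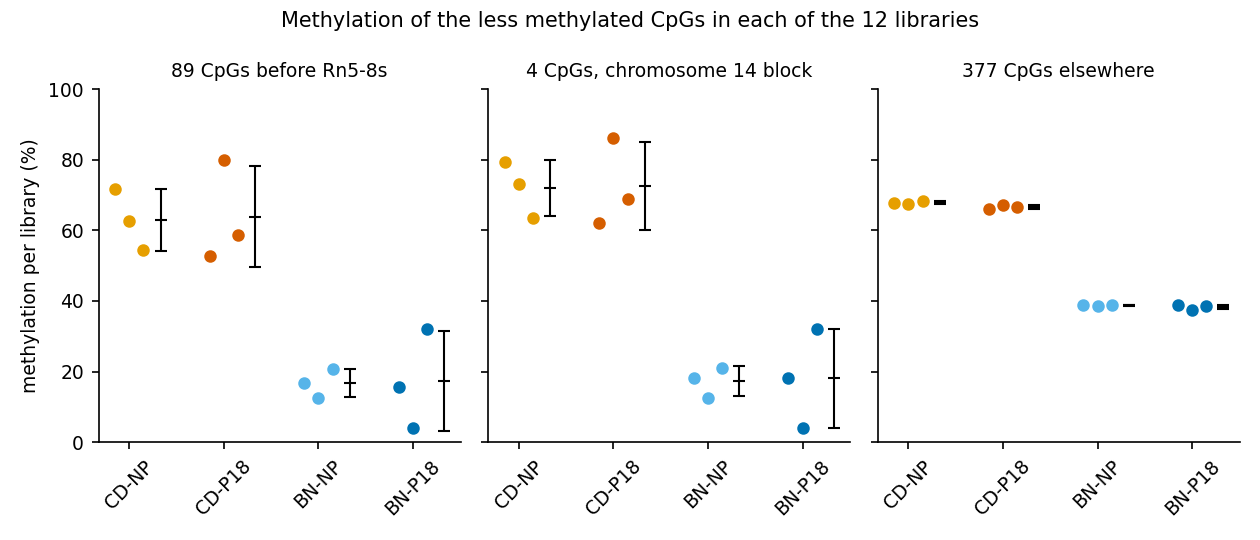
Methylation (%) in each of the 12 libraries (points, 3 per group) with the group mean and SD (bars), from left to right for the reads of the 89 CpGs before Rn5-8s, for the reads of the 4 CpGs of the chromosome 14 block, and as the mean over all 377 CpGs outside the stretch, which include that block. Before Rn5-8s the BN libraries run from 4.10 to 32.1% and the CD libraries from 52.8 to 79.9%. The right panel averages over many loci, so its spread is not comparable with that of the others.

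Coverage moved with strain in the stretch. Its members had a median of 850 reads per CpG and library, beside 24 over all tested CpGs and 26.5 over the other members. Summed over its 89 CpGs and given in ppm of the total coverage of the library, coverage was 1522, 1001 and 1834 in the CD-NP rats and 711, 1701 and 977 in the CD-P18 rats. In BN it was 2577, 1840 and 3021 at NP and 2386, 2328 and 3732 at P18. The lowest BN library lay just above the highest CD library. In the chromosome 14 block the strains overlapped, with 65.0 to 164.9 in CD and 122.1 to 314.8 in BN on the same scale. Over the remaining members it was 323 to 369 in CD and 294 to 333 in BN. The part of coverage in the methylation gap was not tested. In bulk tissue a lower methylated share in every cell and a change in the mix of cells cannot be told apart.

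Past the start of Rn5-8s the difference narrowed and then turned. At 5 CpGs 473 to 500 bases after the start, BN was lower at both stages, by 0.40 to 19.9 points at NP, as BN minus CD ran from -19.9 to -0.40. Of 11 CpGs 672 to 742 bases after the start, 10 were higher in BN at both stages. Over their reads the level was 0.64 to 1.85% in the CD libraries and 1.14 to 12.2% in the BN libraries. The 3 tested CpGs 9452 to 9468 bases before the start were also higher in BN at both stages.

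Outside the stretch the gap was mostly moderate. Median levels of pooled reads were 73.1% at NP and 71.4% at P18 in CD, and 43.6% and 40% in BN. The median of BN minus CD was -25.7 points at NP and -25.6 points at P18. At 127 of the 377 CpGs the gap was under 25 points at both stages, and at 16 it was over 50 points at both. In 264 members BN had 20 to 80% at both stages, so that BN was partly methylated. In 38 BN had at most 5% at both stages, and 35 of these had under 50% in CD as well. The closest BN and CD libraries were under 5 points apart at 157 of the 466 members and over 20 points apart at 91.

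**Figure D3:**
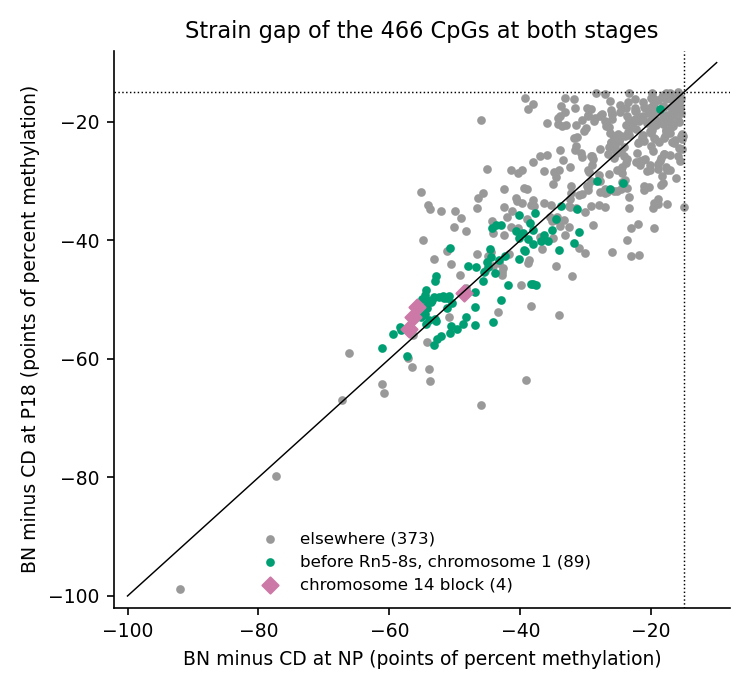
BN minus CD in points of percent methylation at NP (horizontal) and at P18 (vertical) for each of the 466 CpGs, with the limits of the rule dotted and the line of equal gaps. The 89 CpGs before Rn5-8s run from -61.1 to -18.7 points at NP with a median of -46.8, and the other 377 CpGs have a median of -25.7.

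The largest gap was on the minus strand at position 124792200 of chromosome 2. The CD-NP libraries had 96.0%, 95.2% and 81.3% and the CD-P18 libraries 100%, 95.0% and 100%, while all 6 BN libraries had 0%. The 121 BN reads allow a level of up to 2.48% when 3 reads are taken as the limit for a count of 0, which covers counting error only. The next tested CpG, 12 bases away on the same strand, had 94.1 to 100% in BN and 95.5 to 100% in CD. The gap was thus limited to 1 of 2 neighbouring CpGs.

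At position 140680094 of chromosome 7, minus strand, CD had 92.6% of pooled reads at NP and 94.3% at P18, and BN 15.3% and 14.5%. A CpG 42 bases away was lower in BN by less, with BN minus CD of -26.2 points at NP and -28.8 at P18. At position 1510492 of chromosome 12, also on the minus strand, the BN libraries lay between 27.7 and 32.1% and the CD libraries between 95.6 and 97.9%. The other 8 tested calls within 50 bases differed by at most 3.24 points at either stage, at positions 2 to 38 bases away. Coverage of this CpG, scaled in the same way, was 27.5 to 46.5 in CD and 9.44 to 18.2 in BN, so here the less methylated strain had fewer reads. The 2 members with the next largest gaps stood together at positions 191763569 and 191763591 of chromosome 1, with BN minus CD of -60.9 and -61.2 points at NP, and another member 10 bases before them had -48.2 points.

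At 17 members outside the stretch (4.51%) no methylated read was seen in any of the 6 BN libraries, over 79 to 184 BN reads per CpG, which allow levels of up to 3.8 to 1.63%. CD levels at these CpGs ran from 15.1 to 98.8%, and 11 of the 17 were under 30% in CD at both stages. Among the 1363 CpGs of the mirrored rule, 264 (19.4%) had 0% in all 6 CD libraries. One of the 17 is the member in the LOC130014439 promoter, at position 88536592 of chromosome 13, 219 bases before the start, capitalised in the sequence above. CD had 48.5% at NP and 49.1% at P18, between 35.5 and 61.5% in single libraries, and BN had none of 170 reads methylated, which allows up to 1.76%. On the same strand the neighbours 2 bases before and 5 bases after it had 37.8% and 48.2% in BN-NP and 35.6% and 47.6% in CD-NP. At P18 the nearer of them had 25% in BN and 41.6% in CD, a BN minus CD of -16.6 points, and the other 42.4% and 47.3%. The GRCr8 sequence, also of a BN rat, has a CpG at this position, but the match by CpG spacing required one. Whether the rats carried another base there was not tested.

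Outside the stretch, most members with a tested neighbour had a neighbour that shared the gap. Neighbours were tested calls on either strand, so the other strand of the same CpG counted as one. Of the 377 members outside the stretch, 282 had another tested call within 50 bases. Of these, 177 (62.8%) had a neighbour that was also at least 15 points lower in BN at both stages. At 27 (9.57%) all neighbours were within 10 points of 0 at both stages. For the mirrored rule the counts were 1216 CpGs with a neighbour, 373 (30.7%) with one that differed alike and 469 (38.6%) with neighbours all within 10 points. The 2 counts are given side by side as a description. The other strand of the CpG was tested at 31 members outside the stretch. It was lower in BN at both stages at 25, by at least 15 points at 16. At 12 it was a member itself, and both strands of such CpGs are in this count.

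Among the large clusters outside the stretch, one on chromosome 3 (positions 11530838 to 11531214) joined 9 members of 10 tested CpGs at low levels. The mean over its members was 25.3%, 17.8% and 22.2% in the CD-NP rats and 19.8%, 18.7% and 24.5% in the CD-P18 rats. In BN it was 1.47%, 1.26% and 2.71% at NP and 1.35%, 0.444% and 1.11% at P18. It was nearly unmethylated in BN and methylated on about 1 in 5 reads in CD. A cluster of 7 on chromosome 1 (263673181 to 263673324) had high levels instead, with 87.7 to 94.3% in the CD libraries and 49.7 to 58.4% in the BN libraries. A cluster of 6 on chromosome 5 (161607786 to 161607918) had 71.3 to 78.9% in CD and 27.5 to 43.7% in BN. All tested CpGs between the first and last member were members in the clusters on chromosomes 1 and 5. A cluster of 5 on chromosome 20 (3764937 to 3765228), as large as the smallest in the stretch and named after its values were seen, had 56.6 to 77.2% in CD and 27.2 to 37.8% in BN. No gene was placed at these 4 clusters.

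At the limit of the rule, the members with the smallest gaps lay at position 154651558 of chromosome 5 (BN minus CD -15.0031 points at NP and -34.4 at P18), 39711235 of chromosome 12 (-15.9 and -15.0113) and 29731641 of chromosome 5 (-17.1 and -15.1). Just outside it lay 54495782 of chromosome 3 (-15.6 and -14.9987), 144161616 of chromosome 5 (-27.4 and -14.9889) and 45909355 of chromosome 10 (-14.9777 and -20.9). The values on either side of the limit are nearly the same.

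The Mt1 promoter held 4 members, all on the strand of the gene, at 12, 36, 43 and 49 bases before the start. Their mean level was 25.2%, 42.9% and 39.9% in the CD-NP libraries and 19.2%, 32.8% and 30.1% in CD-P18. It was 1.30%, 0% and 1.09% in BN-NP and 0.925%, 0.833% and 0% in BN-P18. BN was close to unmethylated in each library, and all 6 CD libraries were partly methylated. A CpG at base 4 of the gene had 17.1% in CD-NP and 0% in BN and missed the rule at P18, where the gap was 11.9 points (BN minus CD, -11.9). The 15 tested calls farther from the start, at 49 to 169 bases before it, were near 0 in both strains, with at most 5.88% in any library. The CpG 49 bases before the start lies in a CCGG site, where RRBS fragments end. On the strand of the gene it had 41.8% in CD-NP and 31.1% in CD-P18, whereas on the other strand none of 113 CD reads was methylated, which allows up to 2.65%. The strands of this CpG thus disagreed in CD. The next tested calls farther from the start were on the other strand, which had no tested call nearer the start than this CpG. The switch from methylated to unmethylated calls in CD therefore coincided with a switch of strand, and its position on either strand was not shown.

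**Figure D4:**
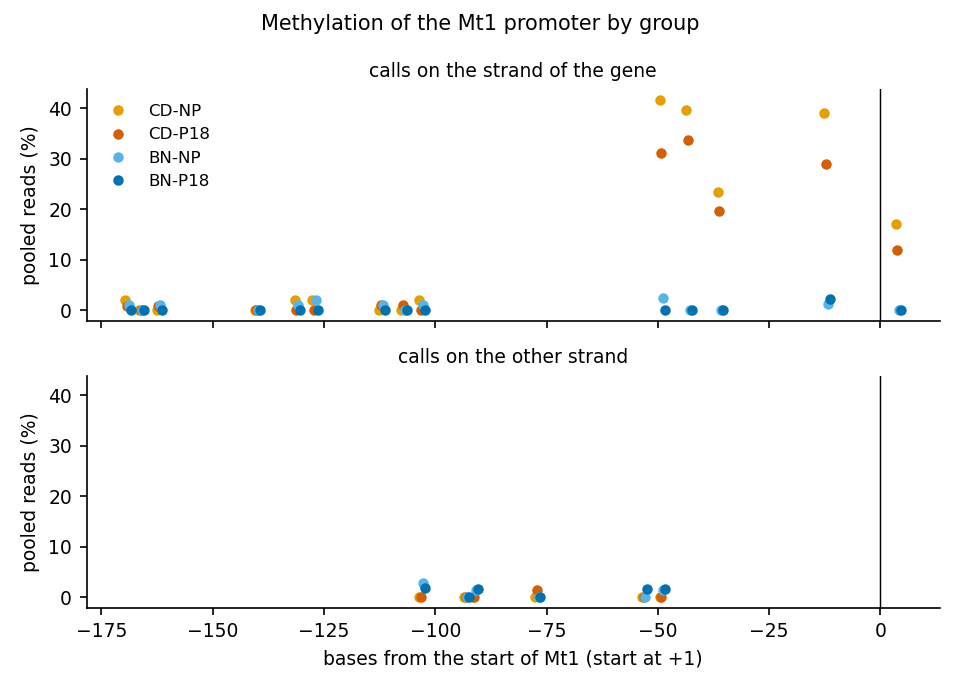
Methylation of pooled reads (%) of each tested call in the Mt1 promoter against its distance from the start of the gene, in 1 panel per strand and 1 colour per group of 3 rats. On the strand of the gene, CD levels are above 10% at the tested calls from 49 bases before the start onward, and BN stays near 0.

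The 7-base core of the metal response element, which MTF1 binds, was searched as TGCACNC or TGCGCNC on both strands. The Mt1 promoter held 6 matches between 176 and 49 bases before the start, and the match nearest the start ended on the C of the member at 49 bases. One or more matches occurred in 24.2% of 33469 promoters of the same length, and 4 or more in 0.439%. A match is a description of the letters. The LOC130014439 promoter held 0 matches.

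Members could be placed at 4 further genes through tables of the study. Of these, 2 members lay in an intron interval of Grm4 (positions 6952888 and 6952927 of chromosome 20), which codes for a metabotropic glutamate receptor, and 1 lay 1 to 5 kb before Slc22a13 (127904462 of chromosome 8), an organic anion and urate transporter of the kidney. One lay in an intron of Camta1 (168357141 of chromosome 5), a calmodulin-binding transcription activator, and 1 in an exon of the zinc finger gene Zc3h11a (50231425 of chromosome 13). At the Grm4 member 6952888 CD had 41.4%, 30% and 33.3% at NP and 28.2%, 36.4% and 44% at P18, against 15.8%, 7.14% and 14.3% and 8.33%, 8.33% and 6.67% in BN. At the Slc22a13 member CD had 60%, 43.5% and 40% at NP and 50%, 73.3% and 52.3% at P18, and BN 22.6%, 36.1% and 33.8% and 38.2%, 23.4% and 29.1%. The 2 strains did not overlap at either, as the rule requires.

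RNA was measured for Mt1, Grm4 and Slc22a13. Identifiers were paired with symbols for part of the genes only. The study lists these 3 at CpGs because their RNA differed between strains, so neither their calls nor their direction are independent evidence. Mt1 had 78.0, 53.3 and 64.7 library-scaled counts (CPM) in CD-NP and 79.7, 70.5 and 65.6 in BN-NP, with overlapping groups. In edgeR's quasi-likelihood test its log2 fold change of BN over CD at NP was 0.14 ± 0.21 (SE, adjusted p = 0.770). At P18 it had 50.6, 35.2 and 29.7 CPM in CD and 106.1, 59.4 and 83.3 in BN, all BN libraries above all CD libraries, with a log2 fold change of 1.10 ± 0.21 (adjusted p = 0.00713). The promoter gap was present at both stages, and the RNA difference passed the test at P18 but not at NP. The difference between the 2 log2 fold changes, P18 minus NP, was 0.96 ± 0.30 (SE) and did not pass its own test (edgeR, adjusted p = 0.198).

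Slc22a13 was also higher in BN at P18, with 93.9 ± 17.9 CPM (SD, n = 3) in CD and 106.0 ± 21.6 in BN at NP, and 55.3 ± 10.4 in CD and 142 ± 21.8 in BN at P18. Its log2 fold change was 0.18 ± 0.18 (SE) at NP (edgeR, adjusted p = 0.622) and 1.36 ± 0.18 at P18 (adjusted p = 0.000471). The difference between these, 1.18 ± 0.25, passed the test of the difference (edgeR, adjusted p = 0.0606), as did 0.943% of all genes. It no longer passed when any of 8 libraries was left out. Grm4 was low in all libraries, with 2 to 12 reads in CD and 22 to 75 reads in BN. Its log2 fold change was 2.64 ± 0.58 at NP (edgeR, adjusted p = 0.0165) and 2.95 ± 0.59 at P18 (adjusted p = 0.00831). Its 2 fold changes differed by 0.31 ± 0.88 (edgeR, adjusted p = 0.929). Of the 3 genes, 1 was called at NP, where 8.38% of 14212 genes were called (3.83% higher and 4.55% lower in BN). At P18 all 3 were called and higher in BN, where 9.6% were called (4.9% higher and 4.7% lower). The study listed these 3 genes because their RNA differed in these samples. The count of calls was thus largely set by that choice and is void. A call required an absolute log2 fold change over 0.32 and an adjusted p below 0.1.

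Of 22 genes of the methylation machinery, 3 had both a paired symbol and a value past the filter on low counts, so a count over that list is void. Ahcy, which clears the by-product of methyl transfer, was lower in BN at P18 (log2 fold change -0.41 ± 0.13, edgeR, adjusted p = 0.0729). Tet2, an enzyme of demethylation, passed at neither stage, with 0.15 ± 0.17 at NP and -0.42 ± 0.17 at P18 (edgeR, adjusted p = 0.664 and 0.156). Of 35 kidney cell markers, 17 had both a paired symbol and a value past the filter on low counts. Among them were the proximal tubule phosphate transporter Slc34a1 at 2716 CPM and the podocyte gene Nphs1 at 114 CPM in CD-NP. Of the 17, 6 were called between strains at NP and 6 at P18, beside 8.38% and 9.6% of all 14212 genes. Symbols were paired through a list of genes that differ in these samples, so the marker count is raised by that choice and is void as well. The part of cell mix in the methylation gaps was not tested.

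Pregnancy was tested within each strain and as an interaction with strain. The rule did not use these contrasts, but it required a gap at both stages and no overlap between strains. It thus tended to leave out CpGs with a large pregnancy change, so low counts among members are partly set by that choice. A call required a difference of more than 10 points with an adjusted p below 0.05. No member was called in BN, where 0.000247% of 404069 CpGs were. No member was called in CD, where 0.0483% were, and none for an interaction, called by the adjusted p alone, where 0.0052% were. The test was a logistic model of the reads with its dispersion moderated by limma. At an unadjusted p under 0.05 there were 10 members in BN, 11 in CD and 6 for the interaction, which are 2.15, 2.36 and 1.29% of the 466, beside 3.52, 3.35 and 3.83% of all tested CpGs. The smallest unadjusted p in BN was 0.000164 in this limma-moderated model (adjusted p = 1), at position 63977651 of chromosome 13, where BN-P18 was 22.8 points above BN-NP.

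The level at P18 minus that at NP ranged from -22.3 to 22.8 points in BN and from -20.2 to 17.5 points in CD. It was within 10 points at 432 members in BN (92.7%) and 427 in CD (91.6%), beside 93.9% and 92.8% of all tested CpGs. The strain gap itself differed by a median of 3.96 points between the stages, and by under 10 points at 394 of 466 members. The rule required a gap at both stages, which favours small differences here. Over the reads of the stretch before Rn5-8s, the means of NP and P18 given above differed in each strain by less than the SD of either group.

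**Figure D5:**
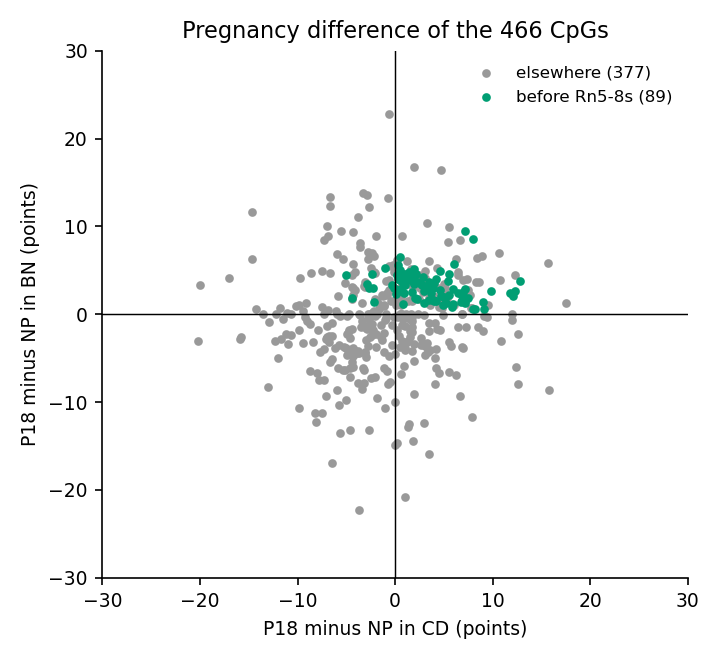
P18 minus NP in points of percent methylation in CD (horizontal) and in BN (vertical) for each of the 466 CpGs, from pooled reads. The points surround 0 in both directions, within -22.3 to 22.8 points, and no member was called in either strain.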

How the data were processed

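RRBS libraries of 12 rat kidneys were processed by the authors with Trim Galore 0.4.5, Bismark on Rnor6.0 and methylKit 1.16.1, per the submitters' processing notes, and deposited as the coverage (read counts) and percent methylated of each CpG and strand, from 5 reads upward. RNA-seq gene counts were made by the authors with STAR 2.5.2 and HTSeq 0.6.1 and deposited without normalization. Of the entries, 72.5 to 75.6% were not counted for a gene and were left out, which left 8274159 to 11879451 reads per library. RRBS coverage summed to 21669162 to 44738436 per library. PCR and repeat copies limit the precision beyond these counts.

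Members followed the rule and clusters a distance of 200 bases. Methylated reads were coverage times percent, rounded. Pregnancy was tested with a logistic model, F test and Benjamini-Hochberg adjustment over 404069 CpGs. Its dispersion was moderated with a prior fitted by limma 3.58.1 (fitFDist). RNA used edgeR 4.0.16 with TMM and filterByExpr over 4 groups (14212 of 32883 genes), with DESeq2 1.42.0 as an alternative. Both tests were tested on simulated data. Replicates are separate rats. Symbols were paired with Ensembl identifiers by matching level and fold change in a gene table of the study that holds genes differing in these samples (2902 of 3064 symbols). CpGs were placed at genes by intervals or pooled differences in the study's tables, and values of those tables were not used further. The members, lists and rules were chosen with earlier results of these data known. Named were the 10 largest clusters, the 5 largest gaps, the 3 CpGs on either side of the limit, and genes placed at members. One gene of the methylation machinery is not reported here.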

Additional observations from a re-analysis of the deposited data

Results flagged for a closer look

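The strain difference in Slc22a13 RNA was larger at P18 than at NP in the main fit. Slc22a13 was picked by the study for an RNA difference between pregnant BN and pregnant CD rats, which favours a larger difference at P18. Its log2 fold change of BN over CD at P18 exceeded that at NP by 1.18 ± 0.25 (SE, edgeR's test of the difference, adjusted p = 0.0606), a comparison added after its values were seen. All 3 BN-P18 libraries, at 117.8 to 159.8 CPM, lay above the 3 CD-P18 libraries, at 47.2 to 67.1 CPM, while the NP groups overlapped. Leaving out 1 library gave differences of 1.08 to 1.36, with adjusted p from 0.0325 to 0.2.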

How the results depend on the processing

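The number of members and clusters moved with the settings of the rule. A coverage of at least 20 gave 141 members in 12 clusters, a limit of 10 points 712 members, a limit of 25 points 229 members in 31 clusters, and dropping the condition of no overlap 1088 members in 170 clusters. Leaving out 1 library gave 531 to 717 members and 66 to 96 clusters. The 717 came without CD-NP replicate 3, the library of lowest depth, when 520022 CpGs could be tested. Means of library percentages gave 474 members. Without the stretch before Rn5-8s, chosen after seeing the data, 377 members in 61 clusters remained.

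Pregnancy calls were 0 in most settings. Without overdispersion 4 members were called in CD and 2 for the interaction. Leaving out 1 library gave 0 to 1 calls in BN, with the 1 call found without BN-P18 replicate 3, and 0 in CD and for the interaction. With 1 CPM required in all libraries Grm4 was not tested, and 0 genes at members were called at NP, instead of 1. Leaving out 1 library kept 1 gene at NP and 3 at P18, and DESeq2 and RLE scaling did the same. Same-numbered rats were not treated as pairs in the main tests. Correlations of their deviations lay between -0.017 and 0.025 in RRBS and between -0.188 and 0.27 in RNA-seq. With 3 rats per group these correlations cannot exclude pairing. With the replicate block 0 members were called in BN, CD and for the interaction, and the genes called were 1 at NP and 3 at P18. With 3 rats per group and as few as 10 reads, small pregnancy differences could not be detected.

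The difference of the strain log2 fold changes between stages, added after seeing the data, passed for Mt1 with DESeq2 (adjusted p = 0.0596), without the filter on low counts (adjusted p = 0.0357 in edgeR) and with the replicate block (adjusted p = 0.0433 in edgeR). For Grm4 it turned to -0.44 without BN-P18 replicate 3, to -0.46 without CD-NP replicate 3 and to -0.03 without CD-P18 replicate 2, within -0.46 to 0.67 over all libraries left out. The cause was not tested.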

Other observations

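The X chromosome was not part of the rule. Of 7900 CpGs on it with at least 10 reads in all 12 libraries, 6 met the same conditions for a lower level in BN and 17 the mirrored ones. Among them, named after their values were seen, position 68359833 was the lowest in BN, with 10.3 to 28.6% in the CD libraries and 0 to 1.82% in the BN libraries, and at position 102334082 the CD libraries had 54.8 to 75% and the BN libraries 4.35 to 44.0%.

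Members were spread unevenly over the autosomes. Outside the stretch before Rn5-8s they made up 0.152% of the tested CpGs of chromosome 2 and 0.147% of those of chromosome 14, against 0.0253% on chromosome 6 with 5 members. A member outside the stretch had a median of 3 other tested CpGs within 200 bases, beside 5 for all tested CpGs.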
